A study of Drosophila melanogaster with 18 samples.

Results

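UAS-3L G5 larvae were compared with UAS-3L G1 larvae, that is, later with earlier transgenic Drosophila larvae that lack a driver. The arrays were chosen by their titles, which gave 4 of the 18 arrays of the series, with 2 arrays for UAS-3L G5 and 2 arrays for UAS-3L G1. The study asked what DNMT3L, a mammalian relative of the de novo DNA methyltransferases that flies lack, does when it is expressed over successive generations. The study describes the larvae on both sides of the comparison made here as controls without such expression. The comparison shows how far control larvae labelled UAS-3L differed between the generations G5 and G1.

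Both UAS-3L groups carried FLAG-tagged DNMT3L under a UAS-containing hsp70 promoter with mini-white as the marker, inserted by a P-element into the strain w1118, and neither carried a GAL4 driver. The GAL4-UAS system leaves such a transgene without its activator unless a GAL4 driver is crossed in. RNA was taken from pools of whole larvae of the third instar at about the same stage, and the sources used here do not state whether the pools came from separate crosses, so the p-values measure only the spread between such pools. Generation, time of collection and rearing occasion cannot be told apart for these groups, and the insertion used for the control larvae is not stated. 2 further groups without driver are given for orientation, w1118 larvae without the transgene and larvae named UAS-3L* G20*, from which the tubulin-GAL4 driver had been removed. The labels disagree on the generation of UAS-3L* G20*. No probe set named here measures DNMT3L or the eye color gene used as its marker, so the transgene itself could not be checked.

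In whole larvae each tissue contributes its RNA, and at the third instar the larva feeds, stores glycogen and lipid in its fat body, and then stops feeding before it pupariates. Body wall muscle, the gut and the fat body therefore make up much of what such an array reads, while imaginal discs and neuroblasts contribute most of the dividing cells. Histone transcripts are made during DNA replication, metallothioneins bind copper and zinc, and P450 enzymes and glutathione S-transferases handle hormones and foreign compounds. A lower level in RNA of whole larvae can mean fewer cells of a type or less RNA per cell, which cannot be told apart.

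The 4 arrays separated by generation. The median absolute log2 difference over all 16322 probe sets was 0.139 between the duplicates of UAS-3L G5 and 0.157 between those of UAS-3L G1, and was 0.232 to 0.235 in the 4 pairs that join a UAS-3L G5 array to a UAS-3L G1 array. Duplicates of all 9 groups of the series differed by 0.118 to 0.158. The arrays of UAS-3L G5 differed by 0.138 to 0.14 from those of UAS-3L* G20*, which lies within the spread of duplicates, and by 0.317 to 0.322 from those of w1118. The arrays of UAS-3L G1 differed by 0.228 to 0.236 from those of UAS-3L* G20* and by 0.291 to 0.299 from those of w1118. The salivary gland, which makes the glue that fixes the puparium, was well represented, with mean log2 signals of its 6 glue genes between 7.93 and 12.6 in UAS-3L G5 larvae and between 7.65 and 12.6 in UAS-3L G1 larvae. The fat body, cuticle, midgut, Malpighian tubule and imaginal disc markers have no named probe set here.

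**Figure D1:**
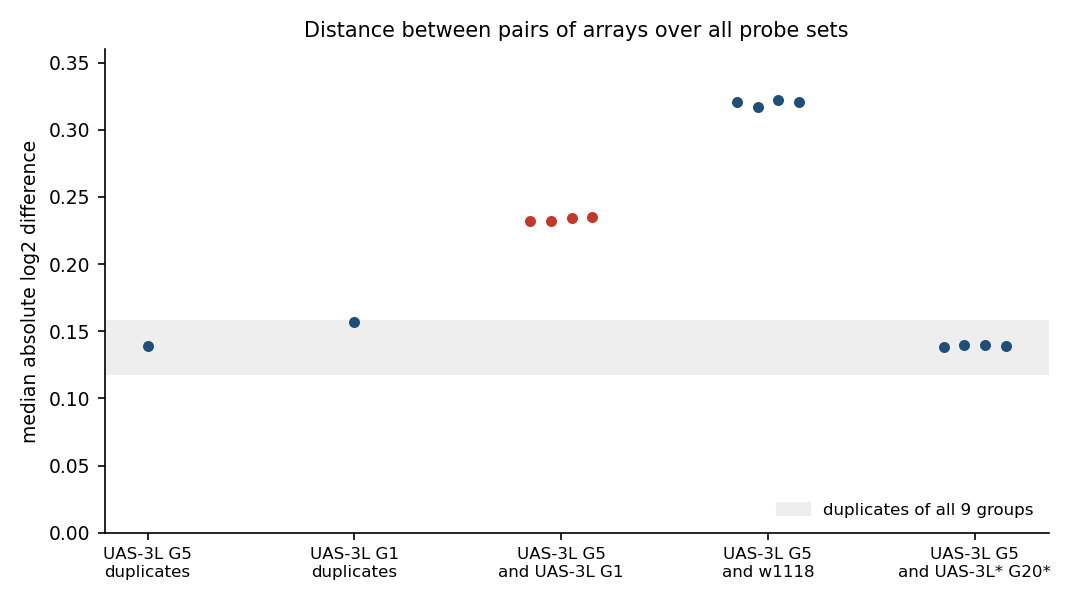
Median absolute log2 difference over all 16322 probe sets for pairs of arrays, 1 point per pair, with the range of the duplicates of all 9 groups shaded. The 4 pairs of a UAS-3L G5 with a UAS-3L G1 array lie at 0.232 to 0.235, above the shaded range of 0.118 to 0.158, and the pairs of UAS-3L G5 with UAS-3L* G20* lie inside it.

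Between the generations 280 of 16322 probe sets (1.72%) were called, at a Benjamini-Hochberg adjusted p under 0.05 in limma and a difference of at least 2-fold. Of these, 164 (1%) were higher and 116 (0.711%) were lower in UAS-3L G5 larvae. The split depended on scaling, with 127 higher and 152 lower after each array was centred on its median, and 130 higher and 146 lower after centring on 2 ribosomal protein genes. The median change of a called probe set was 2.31-fold, 23 of them differed at least 4-fold, and log2 differences ran from -4.02 to 3.25. In all 280 the UAS-3L G5 arrays did not overlap the UAS-3L G1 arrays, which was also true of 54% of all probe sets. Without the fold threshold 2282 probe sets (14%) passed, 1328 (8.14%) higher and 954 (5.84%) lower, with a median log2 difference over all probe sets of 0.03.

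These calls rest on a spread shared by all 9 groups. When only the 4 arrays of the comparison gave the spread, limma called 0 probe sets, with a lowest adjusted p of 0.0696, although 3503 had an unadjusted p under 0.05. A pooled 2-group t-test called 198 at an unadjusted p of at most 0.05 and 2-fold, and 0 after Benjamini-Hochberg adjustment. The methods of the study name a one-way ANOVA at these thresholds.

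**Figure D2:**
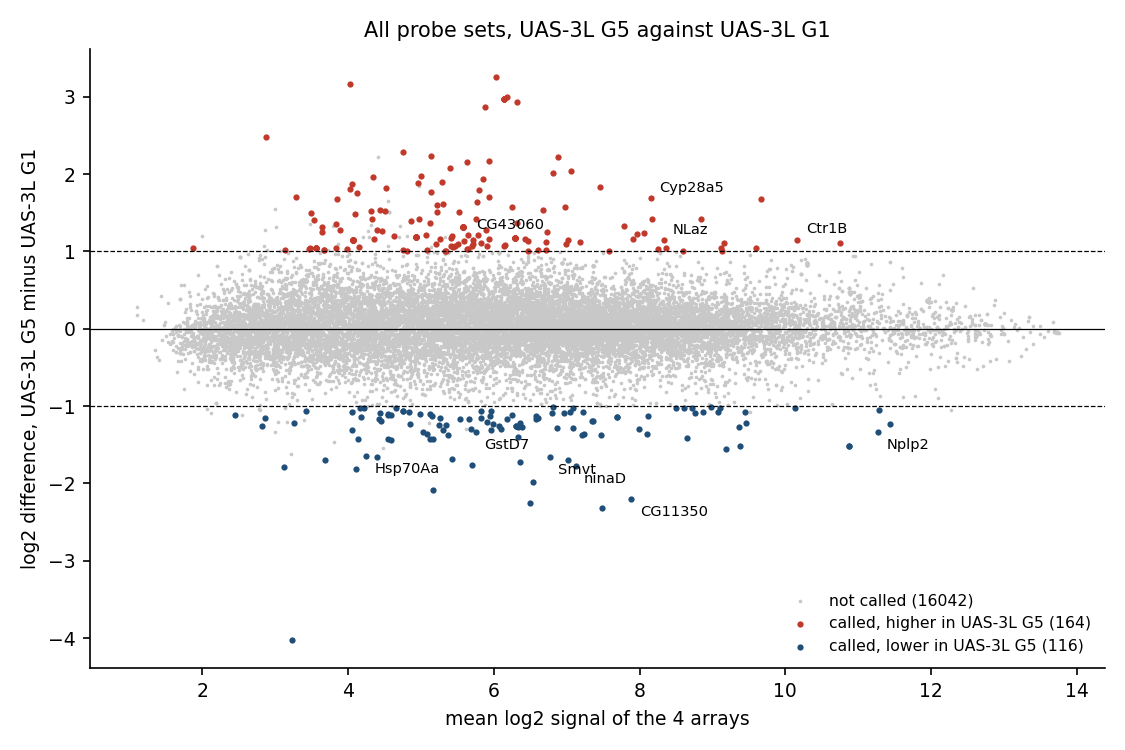
Log2 difference of UAS-3L G5 minus UAS-3L G1 against the mean log2 signal of the 4 arrays, 1 point per probe set, with dashed lines at 2-fold. The 164 probe sets called higher and the 116 called lower span dim and bright signals, and labels mark the named genes with the largest changes.

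Only 18 of the called probe sets carry 1 gene symbol, 8 (0.356%) higher and 10 (0.445%) lower in UAS-3L G5 larvae, or 0.8% of the 2249 named genes. The other 262 are unnamed here and hold 224 distinct rows of values. The largest changes lie among the unnamed ones. Probe set 18169512 read 7.77 and 7.54 in UAS-3L G5 larvae, against 4.74 and 4.06 in UAS-3L G1 larvae, a rise of 3.25 on the log2 scale (adjusted p = 1.39e-05 in limma). Probe set 18176332 was higher by 3.16 (adjusted p = 0.000187). Probe set 18163895 read 6.32 and 6.33 in UAS-3L G5 larvae, against 8.66 and 8.62 in UAS-3L G1 larvae, and fell by 2.31 (adjusted p = 6.9e-05 in limma). Probe set 18130089 fell by 4.02, at 1.20 and 1.23 in UAS-3L G5 larvae against 4.89 and 5.58 in UAS-3L G1 larvae, yet its w1118 duplicates read 1.32 and 4.10, so that duplicates alone differed widely at this probe set.

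The largest increase of a named gene was in Cyp28a5, a cytochrome P450. Its log2 signal was 9.04 and 8.96 in UAS-3L G5 larvae, against 7.23 and 7.38 in UAS-3L G1 larvae, which is 3.24-fold higher (log2 difference 1.69, SE 0.0817, adjusted p = 2.23e-06 in limma). UAS-3L* G20* larvae read 9.02 and 8.94, and w1118 larvae 8.91 and 8.84. For Cyp28a5 the UAS-3L G1 arrays are therefore the low ones among the groups without driver. Ctr1B, an importer of copper in the gut, was likewise lowest in UAS-3L G1. It measured 10.81 and 10.68 in UAS-3L G5 larvae, against 9.63 and 9.56 in UAS-3L G1 larvae (2.23-fold, log2 difference 1.15, SE 0.0835, adjusted p = 1.39e-05 in limma), with 10.71 and 10.66 in w1118. BomS2, a short Bomanin peptide induced by the Toll pathway, read 6.66 and 6.73 in UAS-3L G5 larvae and 5.56 and 5.66 in UAS-3L G1 larvae (2.12-fold, adjusted p = 3.5e-05 in limma), and 6.64 and 6.48 in w1118.

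NLaz, a lipocalin related to apolipoprotein D that acts in stress tolerance and metabolism, rose 2.22-fold, with 8.89 and 8.93 in UAS-3L G5 larvae against 7.83 and 7.69 in UAS-3L G1 larvae (adjusted p = 2.86e-05 in limma). Here w1118 lay in between, at 8.27 and 8.30. The other 4 called increases were abo, which restrains histone gene transcription, fd96Ca, a forkhead factor, Cyp6t3, a P450, and CG43060, with log2 differences of 1.01, 1.02, 1.02 and 1.21. Of these, fd96Ca and Cyp6t3 had a group mean under the lower quartile of the arrays, and Cyp6t3 read 3.46 and 3.85 in UAS-3L G5 larvae, against 2.77 and 2.65 in UAS-3L* G20* larvae. CG43060 read 6.25 and 6.26 in UAS-3L G5 larvae, against 4.87 and 5.22 in UAS-3L G1 larvae (adjusted p = 0.0251 in limma). Its call was lost when any 1 of the 4 arrays was left out (adjusted p 0.0507 to 0.13), and that of fd96Ca was lost without replicate 1 of UAS-3L G5 (adjusted p = 0.0533, against 0.00565 with it).

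Among the decreases, CG11350 had the largest. It measured 7.08 and 6.5 in UAS-3L G5 larvae, against 8.90 and 9.08 in UAS-3L G1 larvae, and 11.90 and 12.02 in w1118 larvae. The difference between the generations was 4.59-fold (log2 difference -2.20, SE 0.172, adjusted p = 2.58e-05 in limma). No groups overlap for this gene except UAS-3L G5 and UAS-3L* G20*, whose arrays read 7.31 and 7.08. Nplp2, named as a neuropeptide-like precursor, was bright on all 4 arrays. It read 10.58 and 10.65 in UAS-3L G5 larvae, against 11.93 and 11.96 in UAS-3L G1 larvae (2.52-fold, log2 difference -1.33, SE 0.0726, adjusted p = 2.45e-06 in limma), and 12.80 and 12.74 in w1118.

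Nutrient uptake genes fell and rose. ninaD, a class B scavenger receptor needed for the uptake of carotenoids, read 6.28 and 6.19 in UAS-3L G5 larvae, against 7.95 and 8.07 in UAS-3L G1 larvae (3.42-fold lower, adjusted p = 5.13e-05 in limma). Smvt, the sodium-dependent multivitamin transporter, read 6.09 and 5.79 in UAS-3L G5 larvae, against 7.60 and 7.61 in UAS-3L G1 larvae (3.16-fold lower, adjusted p = 4.45e-05 in limma). For both genes the w1118 arrays were above those of UAS-3L G1, at 8.73 and 8.57 for ninaD and at 8.28 and 8.13 for Smvt. santa-maria, another class B scavenger receptor of the carotenoid pathway, went the other way, with 9.78 and 9.57 in UAS-3L G5 larvae and 8.79 and 8.84 in UAS-3L G1 larvae (log2 difference 0.86, adjusted p = 0.000227 in limma), as did the scavenger receptor emp (log2 difference 0.48). In the list of carotenoid, vitamin and sterol uptake, 2 of 11 named members rose and 3 fell at an adjusted p under 0.05, the last being the lipophorin precursor apolpp, with a median of -0.31. Among all 2249 named genes 301 (13.4%) passed at that threshold, 146 (6.49%) higher and 155 (6.89%) lower, and their median was 0.00.

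**Figure D3:**
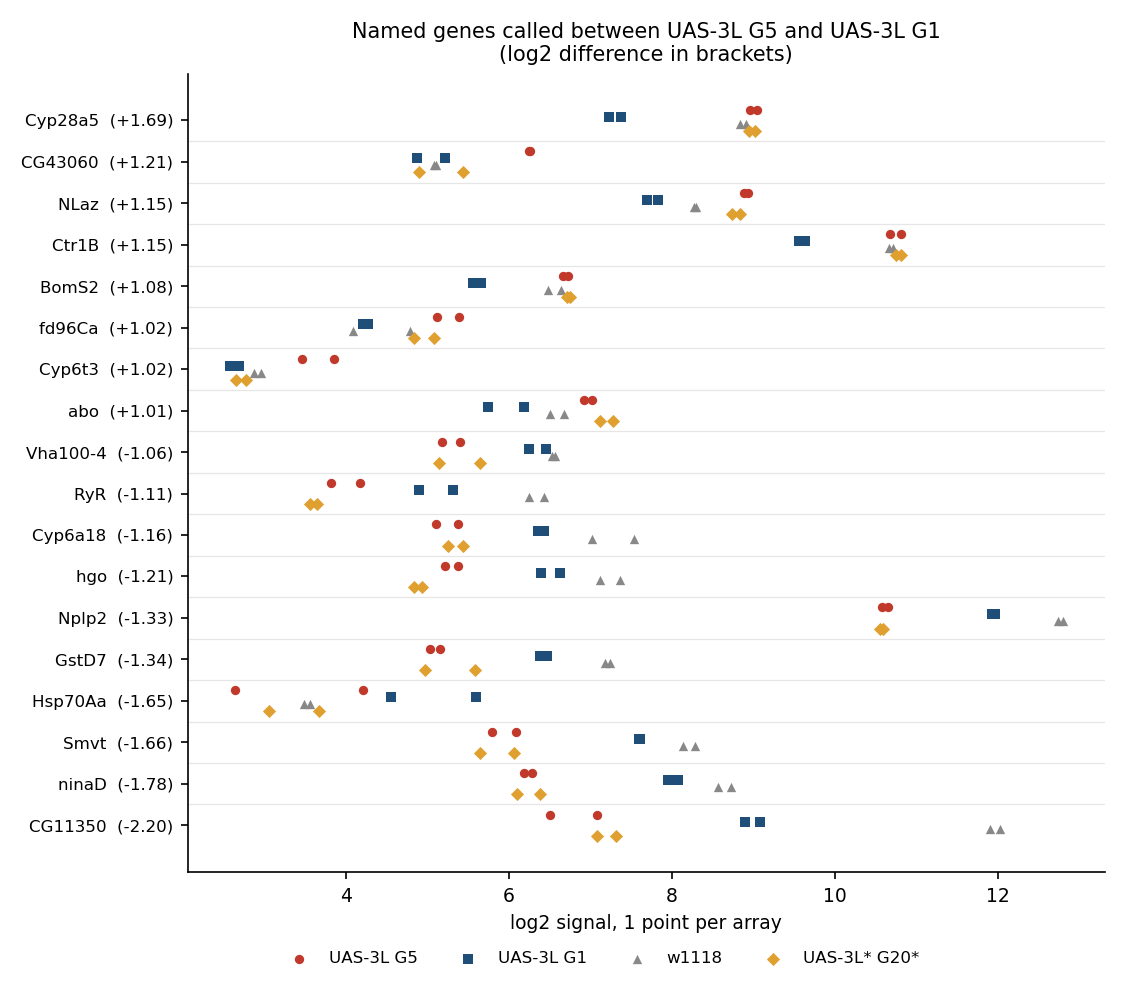
Log2 signal of the 18 named genes that were called, 1 point per array, for UAS-3L G5, UAS-3L G1, w1118 and UAS-3L* G20*, ordered by the log2 difference of UAS-3L G5 minus UAS-3L G1. The duplicates of UAS-3L G5 and UAS-3L G1 do not overlap in any of the 18 genes, and the wide scatter of Hsp70Aa between duplicates can be seen.

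hgo, homogentisate dioxygenase of tyrosine breakdown, read 5.38 and 5.21 in UAS-3L G5 larvae, against 6.62 and 6.39 in UAS-3L G1 larvae (2.31-fold lower, adjusted p = 0.000328 in limma). Vha100-4, a subunit of the vacuolar proton pump, fell by 1.06 on the log2 scale (adjusted p = 0.00181 in limma). The trypsin kappaTry read 7.11 and 6.81 in UAS-3L G5 larvae, against 7.9 and 8.0 in UAS-3L G1 larvae, and fell by 0.99, and the bright gut protease yip7 fell by 0.43, so that 2 of 4 named gut proteases were lower. Of 13 maltases, amylases and disaccharidases, 2 rose and 0 fell, a share near the 13.4% of all named genes that passed. Amy-p and Mal-A4 rose by 0.49 and 0.62, while Amy-d, at 5.55 and 5.42 in UAS-3L G5 larvae against 5.77 and 6.53 in UAS-3L G1 larvae, did not pass (adjusted p = 0.0784 in limma). With the 8 arrays without driver alone, after centring on ribosomal protein genes, and without replicate 1 of UAS-3L G5, replicate 2 of UAS-3L G5 or replicate 1 of UAS-3L G1, 0 of the 13 passed as higher. Amy-d passed as lower after each array was centred on its median (adjusted p = 0.0457 in limma) and after quantile normalisation (adjusted p = 0.0477 in limma). Amy-p and Amy-d are near-identical copies that probes may not separate.

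Of 9 named copper and zinc genes 1 rose and 4 fell (median -0.32), while 13.4% of all named genes passed. The importer Ctr1B, described above, was the 1 that rose, and the 4 that fell were metallothioneins, MtnD by 0.75, MtnB by 0.73, MtnE by 0.68 and MtnA by 0.53 on the log2 scale. MtnA, the brightest of them, read 10.95 and 10.96 in UAS-3L G5 larvae, against 11.52 and 11.46 in UAS-3L G1 larvae (adjusted p = 0.00761 in limma). MtnD read 8.33 and 8.27 in UAS-3L G5 larvae, against 9.13 and 8.96 in UAS-3L G1 larvae (adjusted p = 0.00039 in limma). MtnB and MtnE were dim and close to the threshold (adjusted p = 0.0481 and 0.0135). MTF-1, the zinc finger factor that activates metallothionein genes under metal load, was not past it, with a log2 difference of -0.32 (adjusted p = 0.075 in limma), nor was the importer Ctr1A, at 0.21. Ctr1B passed whichever of the 4 arrays was left out, while 2 fell without replicate 2 of UAS-3L G5 and 3 without any other single array.

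Of the P450 enzymes, 6 of 41 named members rose and 7 fell, with a median of -0.07, while 13.4% of all named genes passed. Besides Cyp28a5, Cyp12a5 was higher by 1.0 and Cyp6d4, Cyp312a1 and Cyp6g1 by 0.72, 0.68 and 0.34. Cyp12a5 read 7.56 and 7.26 in UAS-3L G5 larvae, against 6.61 and 6.22 in UAS-3L G1 larvae. Cyp6a18 was the largest decrease, with 5.37 and 5.11 in UAS-3L G5 larvae against 6.43 and 6.36 in UAS-3L G1 larvae (2.23-fold, adjusted p = 0.00246 in limma), followed by Cyp4aa1 at -1.0. The P450 members that rose and those that fell covered a span of 2.85 on the log2 scale. After each array was centred on its median 6 rose and 12 fell, and with the 8 arrays without driver alone 5 rose and 3 fell.

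Of 19 named glutathione S-transferases 0 rose and 2 fell, a share near the 13.4% of all named genes. The number that fell was 3 after each array was centred on its median and after quantile normalisation. GstD7 read 5.03 and 5.15 in UAS-3L G5 larvae, against 6.38 and 6.47 in UAS-3L G1 larvae (2.53-fold, adjusted p = 0.000616 in limma), and GstD10 fell by 0.50. GstD10 no longer passed with any 1 of the 4 arrays left out, which leaves GstD7 alone. The other 17 transferases did not pass, among them GstE3 at -0.28 (adjusted p = 0.107) and GstE7 at -0.03 (adjusted p = 0.885 in limma). Both subunits of glutamate-cysteine ligase, which makes the precursor of glutathione, were lower, Gclc by 0.77 (adjusted p = 0.00104 in limma) and Gclm by 0.46.

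The median over 21 named histone genes of the replication-dependent cluster was 0.45, and 16 of them passed as higher and 0 as lower (11 without replicate 1 of UAS-3L G5 or without replicate 1 of UAS-3L G1). Among all named genes 6.49% passed as higher. The linker histone His1 changed most. His1:CG33807 read 10.70 and 10.74 in UAS-3L G5 larvae, against 9.83 and 9.82 in UAS-3L G1 larvae (1.86-fold, adjusted p = 2.58e-05 in limma), and 10.13 and 10.16 in w1118. The median log2 differences of the other classes were 0.48 for His4, 0.42 for His3, 0.37 for His2B and 0.25 for His2A. The array holds 129 histone probe sets, but near-identical gene copies share probes and they reduce to 25 distinct rows of values, of which 20 were higher and 0 lower, so the copies are not separate measurements.

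The lists of histone control, replication and Mediator genes described next were drawn up after values had been seen. abo read 6.92 and 7.02 in UAS-3L G5 larvae, against 5.74 and 6.18 in UAS-3L G1 larvae (2.01-fold, adjusted p = 0.000459 in limma). The histone chaperone Nasp rose by 0.55, and Nlp and D1 by 0.27 and 0.29, so that 4 of 7 named members rose and 0 fell, while Slbp, which binds the end of histone transcripts, was at -0.01. The count was 2 after each array was centred on its median and 1 after centring on ribosomal protein genes. Of 11 replication and mitosis genes 4 rose and 0 fell, though 1 fell after centring on the median and after quantile normalisation. Those that rose were Orc2 of the origin recognition complex by 0.79, the kinases SAK and Mps1 by 0.65 and 0.62, and Cks30A by 0.65. Of 22 Mediator subunits 3 rose and 0 fell (median 0.16), a share close to the 13.4% of all named genes that passed. Of 4 histone demethylases and methyltransferases 2 rose and 0 fell, the demethylases Kdm4A by 0.51 and Su(var)3-3 by 0.60, and 0 of 3 Polycomb and Trithorax genes passed (1 at an unadjusted p under 0.05 in limma). With 1 array left out, 2 or 3 genes of histone control, 2 to 4 of replication and mitosis, and 1 or 2 Mediator subunits passed as higher. Of the demethylases only Su(var)3-3 passed without replicate 2 of UAS-3L G1, and 0 passed without any other single array.

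**Figure D4:**
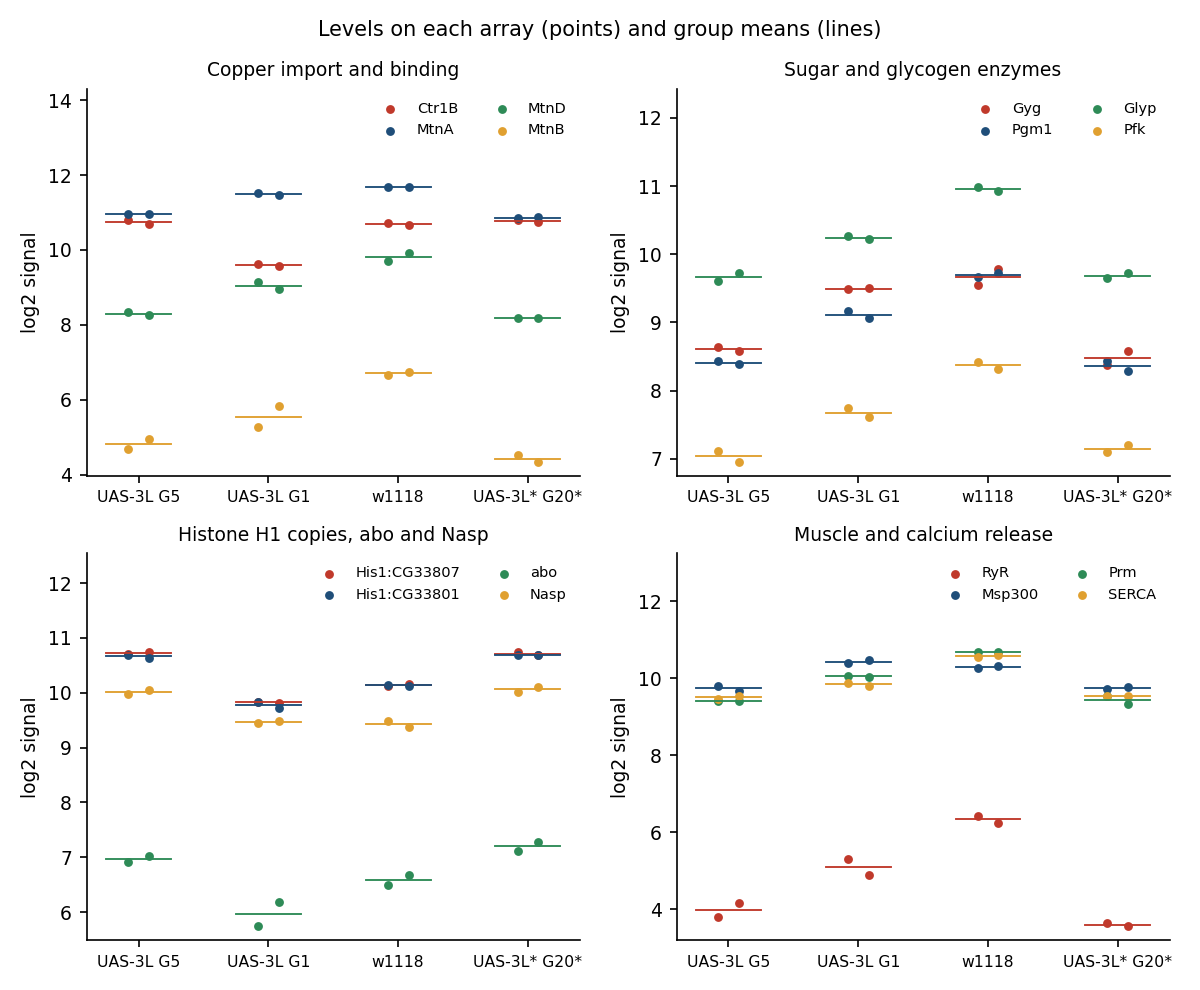
Log2 signals of selected genes, 1 point per array, with group means as lines, for UAS-3L G5, UAS-3L G1, w1118 and UAS-3L* G20*. Ctr1B and the His1 copies are higher in UAS-3L G5 than in UAS-3L G1 larvae, whereas the metallothioneins, the sugar and glycogen enzymes and the muscle genes are lower.

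The 10 named glycolytic enzymes had a median of -0.41, and 0 of them rose and 5 fell, while 6.89% of all named genes fell. Phosphofructokinase Pfk, a control point of glycolysis, read 7.12 and 6.95 in UAS-3L G5 larvae, against 7.74 and 7.61 in UAS-3L G1 larvae (log2 difference -0.64, adjusted p = 0.000512 in limma), and 8.42 and 8.32 in w1118. Pgi fell by 0.44 and Ald1 by 0.33, and the dimmer Hex-C and Gapdh1 by 0.67 and 0.49. All 5 members of a glycogen list put together after values had been seen were lower, with a median of -0.57. Glycogenin Gyg, the primer of glycogen, read 8.64 and 8.58 in UAS-3L G5 larvae, against 9.49 and 9.50 in UAS-3L G1 larvae (1.84-fold, adjusted p = 0.00035 in limma). Phosphoglucomutase Pgm1 fell by 0.70, glycogen phosphorylase Glyp by 0.57, fructose bisphosphatase fbp by 0.42 and glycogen synthase Glys by 0.39. With 1 array left out the glycolytic count was 2 without replicate 2 of UAS-3L G5 and 3 without any other, and the glycogen count was 3 without either UAS-3L G5 array and 4 without either UAS-3L G1 array.

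The 13 named members of the respiratory chain, ATP synthase and citrate cycle had a median of -0.37. Of these 0 rose and 7 fell, while 6.89% of all named genes fell. The largest was Cyt-c1, cytochrome c1 of complex III, with 9.42 and 9.31 in UAS-3L G5 larvae against 9.86 and 9.80 in UAS-3L G1 larvae (log2 difference -0.47, adjusted p = 0.00464 in limma). ATPsyngamma and ATPsynB fell by 0.46 and 0.43. This count depended on single arrays, and was 1 without replicate 2 of UAS-3L G1 and 3 when any other single array was left out. In lipid metabolism ACC, acetyl-CoA carboxylase of fatty acid synthesis, was 1.71-fold lower, at 6.27 and 6.25 in UAS-3L G5 larvae against 7.16 and 6.91 in UAS-3L G1 larvae (adjusted p = 0.000454 in limma), and Acox57D-d, an acyl-CoA oxidase, fell by 0.69.

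The 15 named genes of muscle structure had a median of -0.24, and 0 of them rose, 7 fell (5 without replicate 1 of UAS-3L G1 and 4 without any other single array) and 8 did not pass. Zasp67, at a log2 difference of 0.87 (adjusted p = 0.0576 in limma), was 1 of those that did not pass, and 1 gene passed as higher without replicate 2 of UAS-3L G5. Msp300, a giant nesprin of muscle, read 9.79 and 9.68 in UAS-3L G5 larvae, against 10.39 and 10.47 in UAS-3L G1 larvae (1.62-fold, adjusted p = 0.0013 in limma). Paramyosin Prm fell by 0.64 and Mp20 by 0.38. Among all named genes 6.89% passed as lower. The myosin light chain Mlc1, the 1 named body wall muscle marker, was at -0.23 and just missed the threshold (adjusted p = 0.0529 in limma). RyR, the calcium release channel of the sarcoplasmic reticulum, was called, with 3.81 and 4.17 in UAS-3L G5 larvae against 5.31 and 4.90 in UAS-3L G1 larvae (2.16-fold, adjusted p = 0.000857 in limma), and 6.43 and 6.25 in w1118. The UAS-3L G5 mean of RyR lay under the lower quartile of the arrays. In a list of calcium release and reuptake drawn up after seeing these values, 7 of 8 members fell (3 without replicate 1 of UAS-3L G1, 4 without replicate 2 of UAS-3L G5, 5 without either of the others), including the pump SERCA by 0.32, the exchanger Calx by 0.59 and the binding protein Scp2 by 0.70. SERCA and Scp1 are in both muscle lists.

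**Figure D5:**
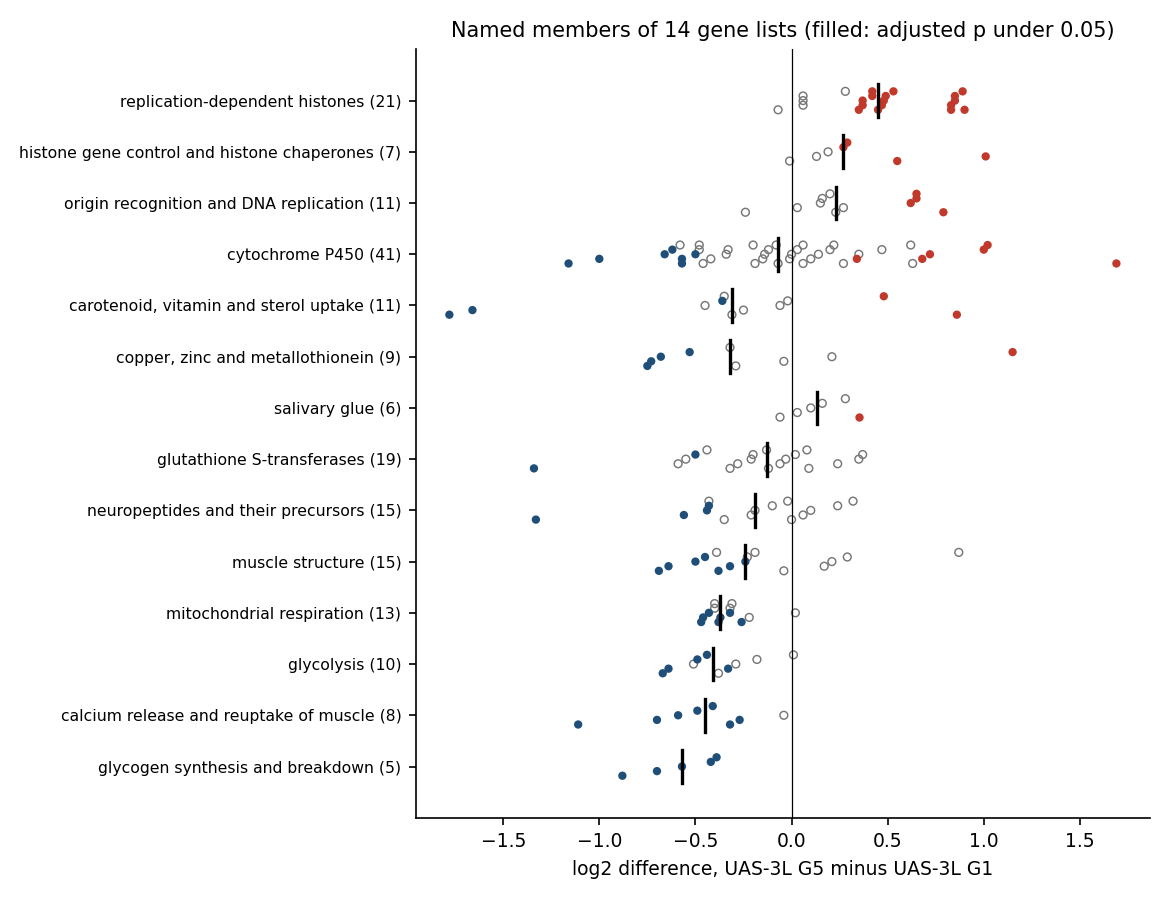
Log2 difference of UAS-3L G5 minus UAS-3L G1 for the named members of 14 gene lists, 1 point per gene, with the number of named members in brackets and the list median as a black line. Filled points passed an adjusted p under 0.05 in limma, red where higher and blue where lower. The median of the histones lies to the right of 0, and those of the glycogen, glycolysis and muscle lists lie to the left. The 14 are a selection of all lists. Those of glycogen, calcium release, histone control and replication were drawn up after values had been seen, so their medians depend on that choice. The replication list also holds mitosis genes. The other lists shown were chosen with earlier results of these data known.

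The heat shock gene Hsp70Ab was bright in all 4 groups without driver and lower in UAS-3L G5 larvae, at 11.62 and 11.67 against 12.56 and 12.52 in UAS-3L G1 larvae (1.87-fold, adjusted p = 0.00013 in limma), with 11.72 and 11.75 in w1118. UAS-3L G1 is therefore the high group at this gene. Hsp70Aa, a near-identical copy that was far dimmer here, read 2.64 and 4.21 in UAS-3L G5 larvae, against 5.60 and 4.55 in UAS-3L G1 larvae (adjusted p = 0.0321 in limma). Its duplicates differed by more than 1 log2 unit in both groups, and its call was lost without replicate 1 of UAS-3L G5 (adjusted p = 0.231) and without replicate 1 of UAS-3L G1 (adjusted p = 0.2). Signals of the copies cannot be separated with certainty. Prolyl hydroxylases, another list formed after values were seen, had 3 of 9 members lower, led by Hph, the oxygen-dependent hydroxylase of the hypoxia pathway, which read 8.72 and 8.74 in UAS-3L G5 larvae against 9.73 and 9.69 in UAS-3L G1 larvae (1.98-fold, adjusted p = 1.53e-05 in limma). For Hph the w1118 arrays were below those of UAS-3L G5, at 8.54 and 8.65. Among all named genes 6.89% passed as lower.

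Besides the rise of BomS2, the antibacterial peptide DptB fell by 0.49, and the other 2 of 4 named peptides did not pass. DptB no longer passed without replicate 2 of UAS-3L G5 or without replicate 2 of UAS-3L G1. PGRP-SB1, a peptidoglycan recognition protein, read 6.37 and 6.45 in UAS-3L G5 larvae, against 7.22 and 7.39 in UAS-3L G1 larvae (1.86-fold lower, adjusted p = 0.000297 in limma). Of 5 hemocyte markers 2 are named here, and both were lower, Pxn by 0.49 (adjusted p = 0.0318 in limma) and PPO1 by 0.43 (adjusted p = 0.0135 in limma), with mean signals of 7.44 and 8.68 in UAS-3L G5 larvae against 7.93 and 9.11 in UAS-3L G1 larvae. In the wider list of hemocyte and melanization genes these were the 2 of 8 named members that fell, the other 6 did not pass, and the median was -0.15. With 1 array left out the count was 0 or 1, since Pxn passed only without replicate 1 of UAS-3L G5, and PPO1 only without replicate 2 of either group. Among all named genes 6.89% passed as lower. The part of blood cell content in the immune changes was not tested.

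Of the neuropeptide genes 0 of 15 rose and 4 fell (1 without replicate 2 of UAS-3L G5 and 2 without any other single array). After Nplp2, these were NPF by 0.56, sNPF by 0.44 and Nplp4 by 0.43. Among all named genes 6.49% passed as higher and 6.89% as lower. Of 7 ecdysone genes 0 rose and 2 fell, the nuclear receptors Hr38 by 0.78 and EcR by 0.33, EcR at an adjusted p of 0.0496 in limma. Neither Hr38 nor EcR passed with any 1 of the 4 arrays left out. Of 6 salivary glue genes Sgs8 rose by 0.35 and the others did not pass. Sgs1 read 9.84 and 9.95 in UAS-3L G5 larvae, against 9.87 and 9.86 in UAS-3L G1 larvae. With the 8 arrays without driver alone, after centring on the median, and after centring on ribosomal protein genes, 0 of the 6 passed. The larval cuticle gene Lcp65Ag2 rose by 0.67, Idgf1 of the chitinase family by 0.45, and Cht4 was at -0.14 with overlapping arrays. After centring on ribosomal protein genes neither Lcp65Ag2 nor Idgf1 passed (adjusted p = 0.0814 and 0.0523 in limma). Whether the pools differed in age within the instar was not tested.

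Of 164 named odorant, gustatory and ionotropic receptors 1 rose and 1 fell, both dim, and of 43 odorant-binding proteins 2 rose and 1 fell, against the 13.4% of all named genes that passed. Most of these are dim, and without the dimmest 25% of probe sets only 2 of the receptors and 14 of the odorant-binding proteins remain. Obp56d, at 11.16 and 11.17 in UAS-3L G5 larvae against 10.88 and 10.90 in UAS-3L G1 larvae, rose by 0.28. This rise did not pass after rescaling. The adjusted p in limma was 0.117 after centring on the median, 0.171 after quantile normalisation and 0.293 after centring on ribosomal protein genes. The bright Obp99b, at 12.67 and 12.71 in UAS-3L G5 larvae against 12.50 and 12.52 in UAS-3L G1 larvae, did not pass (adjusted p = 0.216 in limma). Of 17 spermatogenesis genes 1 rose and 1 fell, a share near that of all named genes, of 14 accessory gland genes 0 rose and 1 fell, and of 7 genes of oogenesis and yolk 0 passed, also without adjustment. In the germline list moon and del rose by 0.82 and 0.39 and mamo fell by 0.46, while orb was at 0.03. Of 9 genes of insulin and TOR signalling 0 passed (3 at an unadjusted p under 0.05 in limma).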

How the data were processed

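RNA of whole larvae had been hybridised by the authors to Affymetrix Drosophila Gene 1.1 ST arrays. As deposited, the table holds log2 signals for 16322 probe sets and 18 arrays, normalised with RMA at gene level in Affymetrix Expression Console 1.3 by the authors, and no further scaling was applied. The array medians were 6.17 to 6.39. Another deposited table with 9 value columns was not used, since they could not be tied to samples. The array annotation gives 1 symbol to 2392 probe sets (2249 distinct symbols, all matched to RefSeq names of Release 6 plus ISO1 MT), and 13930 are unnamed here. Of several probe sets of a symbol the brightest was reported.

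All 18 arrays entered 1 limma model with a mean per group (lmFit and eBayes, R 4.3.3, limma 3.58.1, 9 residual and 2.71 prior degrees of freedom), tested on simulated data. Benjamini-Hochberg adjustment ran over all probe sets. Members of 39 gene lists, and of 7 chosen after values were seen, were counted as passing by the adjusted p alone. List counts are to be read against the 13.4% of all named genes that passed in this way. No list was tested as a set. The list of transgene and eye pigment markers has no named member.

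The comparison, the lists and the genes were chosen with earlier results of these data known. Genes named are the called ones with 1 symbol (up to 15 per direction), the 3 members per list with the smallest p among those that passed, and 16 known from those results. Other list members are examples chosen after their values were seen. Alternatives changed the arrays that give the spread, scaling, dim-signal filter, prior, fold, test, replicate block and single arrays. The deviations of same-numbered UAS-3L G5 and UAS-3L G1 arrays correlated at -0.024, so the arrays were not treated as pairs. This value cannot show how the pools were collected.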

Additional observations from a re-analysis of the deposited data

How the results depend on the processing

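The 280 calls (164 higher, 116 lower) became 0 (0 higher, 0 lower) with the 4 arrays alone giving the spread. They also became 0 with the pooled 2-group t-test after Benjamini-Hochberg adjustment (lowest adjusted p 0.0973). That test without adjustment gave 102 higher and 96 lower. Without the fold threshold there were 2282 (1328 higher, 954 lower), at 1.5-fold 1056 (600 higher, 456 lower), and among named probe sets 18 (8 higher, 10 lower). With 1 array left out they ranged from 257 to 305 (134 to 181 higher, 117 to 151 lower). The median absolute log2 difference in pairs of a UAS-3L G5 with a UAS-3L G1 array had a median of 0.233 over the 4 pairs. It was 0.231 after quantile normalisation and 0.219 without the dimmest 25% of probe sets. The 8 arrays without driver alone gave 221 calls, of which 219 were shared with the 280. Quantile normalisation gave 279 (258 shared), and leaving out the dimmest 25% gave 208. The replicate block gave 280 calls, 277 of them shared. Chosen after seeing the data were the count with identical probe sets taken once, 241, and that without the arrays of Tub-3L G5P, 266. Of the 71 genes that passed among the 78 chosen by the naming rule, 0 passed with the 4 arrays alone, 45 with the 8 arrays, 55 after centring on ribosomal protein genes, 68 after centring on the median, and 42, 48, 49 and 50 without replicate 1 and 2 of UAS-3L G5 and replicate 1 and 2 of UAS-3L G1. None of them changed sign in these settings. Centring lowered list medians by about 0.07, which turned the sign of those of chitin genes, odorant-binding proteins, ribosomal proteins, and salivary and gut mucins. The causes were not tested. The number of arrays limits precision, with a median SE of 0.149 over all probe sets.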

Other observations

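Several named genes of nuclear organisation and of signalling outside the lists also passed, and were picked after their values were seen. HP4, a heterochromatin protein, read 7.66 and 7.57 in UAS-3L G5 larvae, against 6.81 and 6.83 in UAS-3L G1 larvae (log2 difference 0.80, adjusted p = 0.000194 in limma). The lamin B receptor LBR rose by 0.74 and DIP1, a protein that binds double-stranded RNA, by 0.74. Mdr50, a transporter of the multidrug resistance family, rose by 0.75. Atf3, a stress-responsive transcription factor, fell by 0.69 (adjusted p = 0.000562 in limma), the juvenile hormone-inducible JhI-26 by 0.76, the BTB factor chinmo by 0.66 and the globin glob1 by 0.61. Of 8 named alpha esterases 3 fell and 0 rose, led by alpha-Est2 at -0.93, and alpha-Est7 fell by 0.45. Among all named genes 6.89% passed as lower. The count of esterases that fell was 1 without replicate 2 of UAS-3L G5, and 2 or 3 without any other single array.

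By chromosome, 14.5% of 400 named genes on 2L passed, 14.1% of 554 on 3R, 13.5% of 510 on 2R, 12.8% of 454 on 3L, 11.8% of 306 on X and 10% of 20 on 4. Without the histone genes the share on 2L was 11.1%. Of the 18 called named genes, which are 0.8% of all 2249, 0 lie on X, 5 on 2L, 3 on 2R, 2 on 3L and 8 on 3R. Such small counts do not allow chromosomes to be compared. Of the 262 called probe sets without a symbol, 47 fall into 9 sets with identical values on all arrays, the largest with 10 members.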
